A study of Arabidopsis thaliana with 35 samples.

Results

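Wounding can be added to a 2,4-D treatment, and the step that it adds in wild type is the difference between WT-WA and WT-A. WT-WA denotes Col-0 shoot apexes of plants that were wounded and kept on the synthetic auxin 2,4-D, and WT-A denotes Col-0 apexes of intact plants kept on 2,4-D alone. Both groups were chosen by their labels, and each held 3 libraries, so that 6 of the 35 libraries in the series carry the comparison. The 14-day-old plants stood for 55 h on 5 µM 2,4-D. Wounding meant that the shoot was cut from the root in the hypocotyl at the transfer to the treatment plates. WT-A plants thus kept their roots until harvest and WT-WA plants did not. The cut and the absence of the root therefore cannot be told apart. The material was the region of the shoot apical and axillary meristems after cotyledons, true leaves and roots had been dissected away, and the labels call it stem. Further groups were used for reference only: wounded Col-0 without 2,4-D (WT-W), Col-0 on the DMSO mock (WT-M), and the clf-29 swn-3 double mutant (clf swn, cs) with wounding and 2,4-D (cs-WA) or 2,4-D alone (cs-A). CLF and SWN encode the catalytic subunits of Polycomb repressive complex 2, which deposits a repressive histone mark. Each of these groups had 3 libraries, made at different times. The model of all 10 groups also held untreated Col-0 and clf swn plants taken before the treatment. It further held clf swn on the mock and wounded clf swn without 2,4-D. These other groups were part of the shared fit only and were not compared.

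2,4-D is a stable auxin analogue that induces callus and somatic embryos in Arabidopsis tissue. Auxin is perceived by receptors that lead to the breakdown of Aux/IAA repressors, which frees auxin response factors to act on their target genes. Cutting starts a separate response, in which electrical signals, jasmonate and ERF transcription factors act within hours, and it also ends the exchange of nutrients, sugars and hormones between root and shoot through xylem and phloem. The measurements were made after 55 h, so they describe the late state of the cut tissue.

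Reads counted on genes numbered 13899182 to 16178281 in the 6 libraries, and TMM factors lay between 0.987 and 1.02. A count of 3 in such a library equals 0.185 to 0.216 CPM (a gene's count scaled to the library's total). Reads of organelle genes made up 0.0859% to 0.772% of a library. The labels of genotype were checked by CLF itself, at 0.775 to 1.92 CPM in 18 clf swn libraries, against 29.5 to 55.6 CPM in 17 wild-type libraries. SWN was lower by less, at 18.7 to 33.3 CPM in clf swn libraries, against 39.6 to 68.7 CPM in wild-type libraries. Among 6 markers of the shoot apical meristem, STM, KNAT1, KNAT2 and CLV1 were expressed above the filter in these apexes. The stem cell markers CLV3 and WUS had no read in WT-WA, and CLV3 had none in WT-A.

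By the full calling rule, few genes differed when wounding was combined with 2,4-D, and more of them fell than rose. Of 19468 genes tested, there were 84 genes higher in WT-WA than in WT-A and 284 genes lower in WT-WA than in WT-A. That is 0.431% and 1.46% of the genes tested, or 1.89% for both directions. The call required an adjusted p below 0.05 (edgeR's quasi-likelihood test, Benjamini-Hochberg) and that each library of one group differed from each library of the other by a log2 ratio of at least 0.6 in the same direction. The groups therefore never overlapped for a called gene. With the adjusted p alone 366 genes (1.88%) were higher and 624 (3.21%) lower (5.09% for both), and with the replicate number as a block these counts became 1906 and 2560. The median log2 fold change of all genes tested was 0.01, and 87.0% lay within 0.6 of zero. Called genes had a median log2 fold change of 1.37 where higher and -1.65 where lower. A change of more than 2 on the log2 scale was seen in 19 of the higher and 90 of the lower genes.

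The number of calls in this fit of 6 libraries depended on the library left out. Without WT-WA replicate 1, edgeR called 0 genes higher and 3 lower, although 197 and 459 genes met the fold rule at an unadjusted p under 0.05 and DESeq2 called 95 and 334. Without WT-WA replicate 2 there were 19 and 44 calls. Without WT-A replicate 3 there were 3 and 26, and without WT-A replicate 1 there were 26 and 98. Leaving out WT-WA replicate 3 gave 80 and 246 calls, and leaving out WT-A replicate 2 gave 112 and 408. When all 10 groups of the series shared one estimate of the spread, the same omissions left 70 to 165 genes higher and 287 to 643 lower, the most without WT-A replicate 2. In that model 32 of the 84 higher genes and 224 of the 284 lower genes were called whichever library was omitted. In the fit of 6 libraries this held for 0 and 2 of them.

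**Figure D1:**
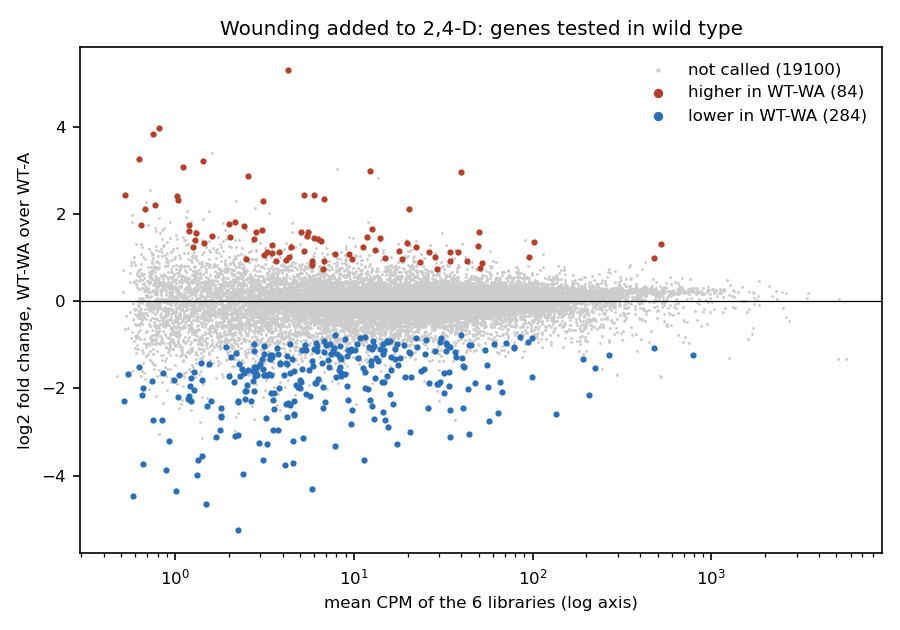
Log2 fold change of WT-WA over WT-A (vertical axis) against the mean CPM of the 6 libraries (horizontal, log axis), 1 point per gene tested. The 284 genes called lower outnumber the 84 called higher, and 87.0% of the 19468 genes lie within 0.6 of 0.

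The promoters of 4 genes are printed as examples, and each holds a match to a motif named below. They are AT1G13609, which had the largest interaction among the genes named, UMAMIT20 of a transporter family, and 2 genes of extensin-type wall proteins that rose. Each sequence is the 250 bases before the RefSeq gene start (assembly TAIR10.1), 5′ to 3′ on the gene's strand, and capitals mark matches to the W-box (TTGACC or TTGACT) or the G-box (CACGTG) on either strand.
AT1G13609 (chr1:4662448-4662697, plus strand): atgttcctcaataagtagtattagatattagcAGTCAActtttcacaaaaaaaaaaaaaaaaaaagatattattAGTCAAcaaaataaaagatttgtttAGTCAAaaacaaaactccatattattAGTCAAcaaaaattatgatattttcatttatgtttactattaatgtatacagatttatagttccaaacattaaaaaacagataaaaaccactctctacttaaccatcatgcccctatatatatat
UMAMIT20 (chr4:5238523-5238772, plus strand): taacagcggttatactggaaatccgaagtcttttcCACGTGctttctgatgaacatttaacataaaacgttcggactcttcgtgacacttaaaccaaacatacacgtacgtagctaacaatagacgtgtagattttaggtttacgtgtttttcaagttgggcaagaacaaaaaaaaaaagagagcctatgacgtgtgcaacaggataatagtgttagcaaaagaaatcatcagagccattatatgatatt
LRX1 (chr1:4069742-4069991, plus strand): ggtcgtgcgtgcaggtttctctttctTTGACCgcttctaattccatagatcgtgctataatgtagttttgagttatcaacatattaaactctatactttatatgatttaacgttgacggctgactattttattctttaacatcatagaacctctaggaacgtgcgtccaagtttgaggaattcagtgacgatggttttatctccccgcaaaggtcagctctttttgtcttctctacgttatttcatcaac
AT3G28550 (chr3:10704019-10704268, minus strand): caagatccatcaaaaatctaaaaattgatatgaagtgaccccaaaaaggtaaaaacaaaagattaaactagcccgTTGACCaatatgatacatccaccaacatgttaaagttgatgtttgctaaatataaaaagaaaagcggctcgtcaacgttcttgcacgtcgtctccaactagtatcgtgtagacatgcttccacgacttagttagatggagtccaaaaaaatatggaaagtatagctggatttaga

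The AT1G13609 window held 4 W-box matches, read as AGTCAA on the printed strand, and the other windows held 1 match each. The windows do not stand for their families. In the same 250 bases no other called UMAMIT gene held a G-box, and the called genes EXT10 and AT1G23720 held no W-box. Counted over 300 bases per gene (250 before and 50 after the start), a W-box was present in 39.3% of the promoters of genes called higher (33 of 84) and in 22.5% of those called lower (64 of 284). The shares were 32.8% of the genes tested and 31.4% of all promoters in the annotation. The G-box was present in 7.14% of promoters of higher genes and 8.80% of those of lower genes, against 8.87% of all genes tested. Shares of the GCC-box (GCCGCC) were 4.76%, 1.06% and 2.67% in the same order, and those of the auxin response element (TGTCTC or TGTCGG) were 15.5%, 14.1% and 18.5%. These matches describe letters in a window and were not tested.

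Genes of amino acid transport formed a first group that fell. The UMAMIT proteins are membrane transporters that move amino acids out of and between cells, and AAP proteins are permeases that import amino acids. Of 34 UMAMIT genes tested, 14 fell and 0 rose with wounding on 2,4-D, with a median log2 fold change of -1.08 over the family, against 0.01 over all genes tested. By edgeR at an unadjusted p under 0.05, 22 were lower and 1 was higher, and DESeq2 called 15 lower and 0 higher. Of 7 AAP genes tested 3 fell, all 7 had negative values, and their median was -0.67. Both families were chosen after their values had been seen, and their counts stand against 1.46% of all genes tested that fell. Counts of called genes in the lists and families below stand against the same share, or against 0.431% for genes that rose. In bulk tissue, fewer cells of a type and less RNA per cell cannot be told apart, here and in all that follows.

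UMAMIT20 had 1.19, 1.24 and 2.6 CPM in WT-WA, against 21.9, 14.9 and 26.5 CPM in WT-A. It was 12.4-fold lower, at a log2 fold change of -3.63 ± 0.34 (SE; adjusted p = 0.013), and each WT-WA library was far below each WT-A library. SIAR1 (UMAMIT18), a transporter known for loading amino acids into siliques, had the highest level of the UMAMIT genes called, with 17.6, 14.3 and 24.0 CPM in WT-WA, against 122, 87.8 and 121 CPM in WT-A. The groups were well apart, and its log2 fold change was -2.55 ± 0.21 (adjusted p = 0.013). UMAMIT32 had 3.23, 3.65 and 5.13 CPM in WT-WA and 22.5, 16 and 25.3 CPM in WT-A, a change of -2.40 ± 0.23. UMAMIT17 and UMAMIT19 ended below 1 CPM in each WT-WA library, with changes of -3.07 and -3.63. The next largest changes were -3.25 for UMAMIT30 and -2.48 for UMAMIT29. The remaining called members were UMAMIT4, UMAMIT12, UMAMIT13, UMAMIT14, UMAMIT28, UMAMIT45 and UMAMIT47, between -0.98 and -2.13. Thus members of very different abundance fell together. Of the members not called, UMAMIT41 passed the adjusted p alone at -0.58, and 8 of the 34 had positive values up to 0.69.

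The permease AAP2, which takes up amino acids along the phloem, had 14.6, 22.6 and 27.1 CPM in WT-WA, against 57.7, 55.1 and 70.0 CPM in WT-A. Its highest WT-WA library was still below its lowest WT-A library, at a log2 fold change of -1.5 ± 0.22 (adjusted p = 0.020). AAP7 fell by 1.37 and AAP4 by 1.28 on the log2 scale. AAP1 passed the adjusted p without the fold rule at -0.62, whereas AAP3, AAP5 and AAP6 did not pass it.

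Some genes of iron and metal handling fell as well. Nicotianamine is a chelator that carries iron, zinc and copper through phloem and between cells, and nicotianamine synthases make it. NAS4 had 3.09, 3.13 and 5.38 CPM in WT-WA, against 37.1, 14.4 and 26.7 CPM in WT-A. NAS1 was scarcer, with 0.263, 0.391 and 1.24 CPM in WT-WA, against 5.68, 4.94 and 14.8 CPM in WT-A. Neither gene overlapped between the groups, and the log2 fold changes were -2.73 ± 0.38 and -3.71 ± 0.65 (adjusted p = 0.020 and 0.031). OPT3, a transporter that loads iron into the phloem, fell to 20.7, 15.8 and 24.5 CPM in WT-WA, against 86.2, 58.1 and 79.9 CPM in WT-A (-1.87 ± 0.20, adjusted p = 0.014). These were the 3 called members among 10 tested genes of the iron homeostasis list, against 1.46% of all genes tested that fell. The list as a whole did not shift, with a median of 0.02 and 5 positive and 5 negative values. IRT1, the iron importer of root epidermis, was at -0.19 and NAS2 at 0.50, and neither passed the test. FER3, which encodes the iron store ferritin, had a positive change of 0.78 that passed the adjusted p of 0.019 and not the fold rule.

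Further genes outside the list fell too, chosen after their values were known. Of 7 genes that RefSeq names as vacuolar iron transporter family, 2 fell, against 1.46% of all genes tested. AT3G25190 had 2.3, 2.28 and 5.19 CPM in WT-WA and 29.0, 27.0 and 39.2 CPM in WT-A, a change of -3.27 ± 0.33, and AT1G76800 fell by 2.65. In both the groups were apart. All 7 values were negative, with a median of -0.80. The short genes AT1G47395 and AT1G47400, neighbours that RefSeq lists as uncharacterized proteins, fell together by 3.33 and 3.13 on the log2 scale. AT1G47395 had 1.32, 0.783 and 2.1 CPM in WT-WA, against 20.7, 9.28 and 13 CPM in WT-A.

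**Figure D2:**
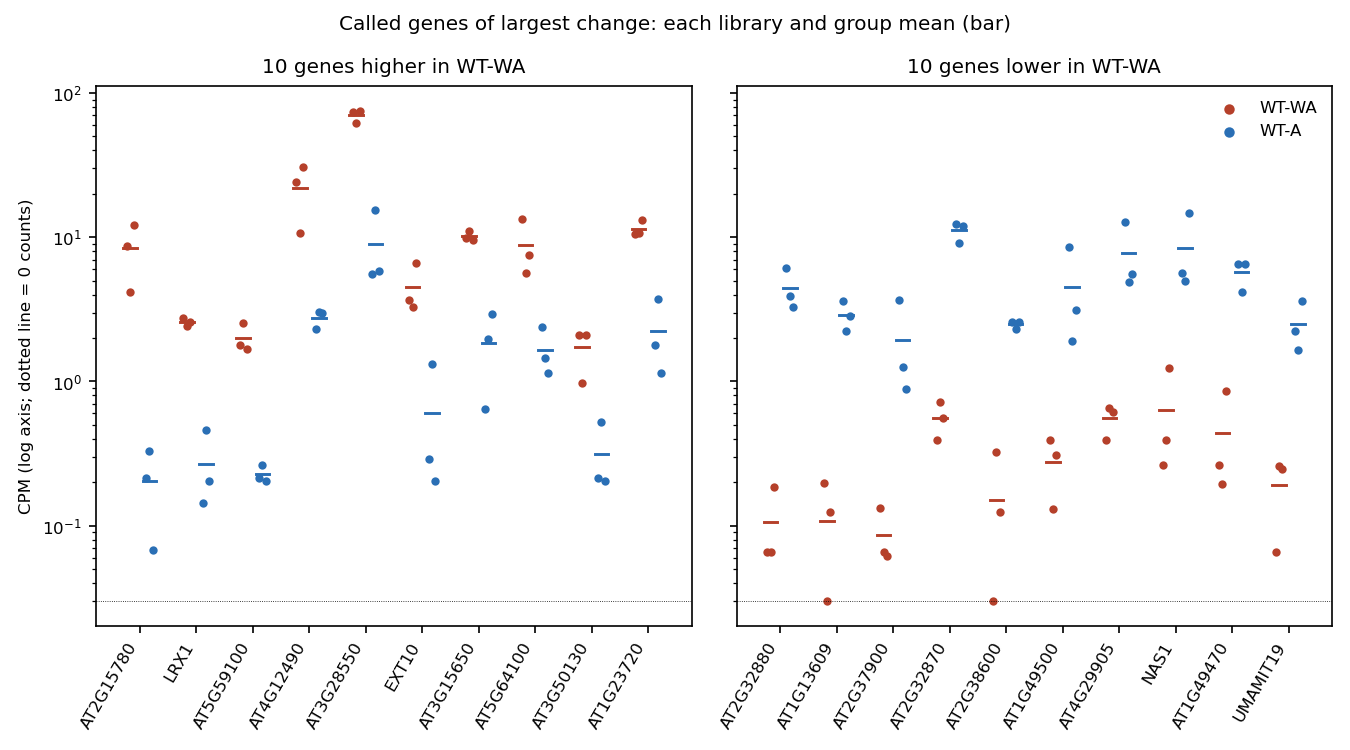
CPM of each library (points, log axis) and group mean (bars) for the 10 genes called higher and the 10 called lower with the largest change among those with a mean of at least 1 CPM, WT-WA left of WT-A. No group pair overlaps, and in several lower genes the WT-WA libraries lie near or at 0 counts.

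The strongest single decreases were in genes whose WT-WA libraries were almost empty. AT2G32880 and its neighbour AT2G32870 encode TRAF-like family proteins. AT2G32870 had 0.395, 0.718 and 0.556 CPM in WT-WA, against 12.4, 9.15 and 12 CPM in WT-A (-4.30 ± 0.25, adjusted p = 0.0061). The ranges were far apart, and among the genes named here this one alone stayed called whichever of the 6 libraries was left out. AT2G32880 had 5 counts over the 3 WT-WA libraries and 192 over the 3 WT-A libraries, which is a ratio of 0.0244 per read counted (95% exact interval of counting 0.00784 to 0.0580). AT1G13609, annotated as a defensin-like protein, had 5 and 126 counts, a ratio of 0.0372 (0.0119 to 0.0892). AT2G37900, a major facilitator superfamily transporter, had 4 and 83 counts, a ratio of 0.0452 (0.0120 to 0.120). These intervals cover counting error only. The acid phosphatase gene AT2G38600 fell by 3.98 on the log2 scale, with part of its exons (7.12%) shared with other genes. AT1G49500, AT4G29905 and AT1G49470 fell by 3.97, 3.77 and 3.65. SEN1, a gene induced in senescence and darkness, had 0.263, 0.196 and 0.185 CPM in WT-WA and 4.68, 1.84 and 1.36 CPM in WT-A, at -3.55 ± 0.61. It was the 1 called member among 13 genes of the senescence and sugar starvation list, whose median was -0.13. With all 10 groups in one fit and a library left out, SEN1, LTP4, PER64 and UMAMIT14 were called in 0 of 6 fits, ARR9 and BGLU24 in 1, MAM1 in 2, TMO7 in 3, AT3G50130, AT5G52940 and ERF114 in 4 and AT4G27850 and PHO1 in 5.

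Several genes of shoot identity and shoot metabolism were lower as well. KNAT1 (BREVIPEDICELLUS), a KNOX homeobox gene of the shoot apical meristem and stem, had 48.7, 48.4 and 56.6 CPM in WT-WA, against 106, 100.3 and 111 CPM in WT-A. The values were tight within each group, and the log2 fold change was -1.04 ± 0.09 (adjusted p = 0.013). LOB, expressed at organ boundaries, fell by 1.97 ± 0.26. The other 9 tested genes of the list of shoot meristem and boundary genes were not called. CLV1 passed the adjusted p alone at -0.76, and STM was at -0.22 with an adjusted p of 0.28. The summed level of the 6 apical meristem markers was 125 to 150.02 CPM in WT-WA and 211 to 218 CPM in WT-A. The part of such a difference in the decreases described above was not tested. ARR9, a type-A response regulator that dampens cytokinin signalling, fell by 1.00 ± 0.16, with 10.03% of its exon bases overlapped by an antisense gene.

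Photosynthesis genes of the nucleus were lower without exception in sign. All 29 tested members of that list had negative values, between -1.17 and -0.46, with a median of -0.75. Of them 14 passed the adjusted p alone and 2 also met the fold rule (3 with DESeq2). PSBO2, a subunit of the oxygen-evolving complex, had 21.9, 20.6 and 25.3 CPM in WT-WA, against 67.7, 40.8 and 45.0 CPM in WT-A (-1.17 ± 0.19, adjusted p = 0.026). LHCB4.3, a light-harvesting protein, fell by 0.99 ± 0.16. In both genes the groups were separate, and the spread within WT-A was the larger one for PSBO2.

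Aliphatic glucosinolates are sulphur-rich defence compounds made from methionine. MYB28, the main transcription factor of their synthesis, had 3.23, 1.89 and 5.13 CPM in WT-WA, against 28.1, 13.5 and 26.4 CPM in WT-A (-2.71 ± 0.40, adjusted p = 0.021). MAM1, which elongates the methionine side chain, had 1.19, 0.587 and 0.865 CPM in WT-WA, against 15.3, 2.17 and 7.40 CPM in WT-A (-3.20 ± 0.70, adjusted p = 0.049). The groups did not overlap, but MAM1 varied widely within WT-A. Of 8 tested list members 7 had negative values, 2 were called (against 1.46% of all genes tested that fell), and the median was -1.86. BCAT4 and CYP83A1 were at -2.55 and -2.30 without passing the test. Genes of indole glucosinolates and camalexin, the tryptophan-derived branch, had a median of 0.02 over 14 tested, with 0 called by edgeR, 5 at an unadjusted p under 0.05 and 1 called by DESeq2 and with the replicate block.

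Single called genes marked other pathways. RAB18, a dehydrin induced by abscisic acid, had 7.84, 6.39 and 7.23 CPM in WT-WA, against 102, 35.6 and 48.8 CPM in WT-A (-3.11 ± 0.39, adjusted p = 0.017). Its WT-A values varied widely, and all lay above WT-WA. It was the 1 called member (2 with the replicate block or DESeq2) among 22 genes of the abscisic acid and dehydration list, of which 17 were negative, with a median of -0.32. RD29B and NCED3, a late stress gene and an enzyme of abscisic acid synthesis, were at -2.72 and -2.05 and did not pass. GH3.9, of the family that conjugates auxin to amino acids, fell by 1.98 ± 0.31, with 9.03% of its exon bases overlapped by an antisense gene. It was 1 of 9 tested genes of auxin inactivation. PHO1, which exports phosphate to the xylem, fell by 1.19 ± 0.21. The kinase gene SNRK2.7 was at -3.27 and the dehydrogenase gene AT3G59845 at -2.73. PER64, a peroxidase that acts in lignin deposition at the Casparian strip, fell by 1.71. MIF3, which encodes a mini zinc finger protein, fell by 1.5.

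The genes that rose included wall proteins of the extensin type. Extensins are hydroxyproline-rich glycoproteins of the cell wall, and LRX1 links the wall and the cell surface in growing root hairs. AT3G28550, annotated as extensin-like, had 73.8, 61.5 and 75.7 CPM in WT-WA, against 5.54, 15.4 and 5.84 CPM in WT-A. The groups were far apart, with 1 WT-A library above the other two, and the gene was 7.83-fold higher at a log2 fold change of 2.97 ± 0.38 (adjusted p = 0.018). LRX1 had 2.77, 2.41 and 2.6 CPM in WT-WA, against 0.144, 0.461 and 0.204 CPM in WT-A (3.21 ± 0.39, adjusted p = 0.016). EXT10 rose by 2.87 ± 0.62 and AT1G23720 by 2.35 ± 0.37, both without overlap. The peroxidase gene AT5G64100 had 13.4, 5.67 and 7.54 CPM in WT-WA and 2.37, 1.45 and 1.15 CPM in WT-A (2.42 ± 0.40).

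The extensin family as a whole did not move. Of 31 tested members, a family chosen after its values were seen, 4 rose and 0 fell, and the median was -0.03. The background of genes called higher is 0.431%. EXT6 and AT3G54580 were at 3.4 and 2.83 and did not pass the test, and 6 members were called higher both by DESeq2 and with the replicate block. By edgeR at an unadjusted p under 0.05, 7 were higher and 6 lower. Reads of these genes are partly uncertain, since 24.2% of the 50-base words in exons of AT3G28550 occur more than once in the genome, and 26.5% of the exon bases of EXT10 are overlapped by an antisense gene. The summed level of 4 root hair markers moved with them, at 42.5 to 62.7 CPM in WT-WA, against 21.7 to 28.7 CPM in WT-A. Nearly all of it was RHD6, a transcription factor that starts root hairs, at 62.3, 42.8 and 40.1 CPM in WT-WA and 21.2, 28.2 and 24.1 CPM in WT-A (0.98 ± 0.20, adjusted p = 0.040, fold rule not met). The other 3 root hair markers did not pass the filter, and the endodermis markers summed to 0.0652 to 0.395 CPM in WT-WA and 0.132 to 0.288 CPM in WT-A, with CASP1 at 0 in all 6 libraries. The 3 root cap markers summed to 8.41 to 14.5 CPM in WT-WA, against 6.52 to 8.35 CPM in WT-A. The part of root-type cells in the rise of wall proteins was not tested.

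Other large increases came from scattered functions. AT2G15780, a cupredoxin family protein, had 8.76, 4.17 and 12.2 CPM in WT-WA, against 0.216, 0.329 and 0.0679 CPM in WT-A. It was 39.4-fold higher, at a log2 fold change of 5.30 ± 0.60 (adjusted p = 0.015), the largest among the genes named. AT4G12490, a lipid-transfer type protein, had 24.1, 10.7 and 30.7 CPM in WT-WA and 2.3, 3.03 and 2.99 CPM in WT-A (2.97 ± 0.40), with 35.9% of its exon bases overlapped by an antisense gene. AT5G59100, a subtilisin-like protease, rose by 3.08 and the hydrolase gene AT3G15650 by 2.44. For AT3G15650 an antisense gene overlaps 18.7% of exon bases. AT3G50130, of unknown function, rose by 2.41.

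Growth and patterning genes rose by less. TMO7, a small mobile factor activated by the auxin response factor MONOPTEROS in root initiation, had 25.2, 28.2 and 21.0 CPM in WT-WA, against 13.2, 11.9 and 8.76 CPM in WT-A (1.14 ± 0.17, adjusted p = 0.023). The lowest WT-WA library was above the highest WT-A library. The root patterning list had 12 of 15 positive values and a median of 0.66. Besides TMO7, MP (MONOPTEROS itself), SHR, PLT1 and WOX5, the last of them a marker of the root stem cell niche, passed the adjusted p alone at 0.61, 0.52, 0.83 and 0.97. ERF114, a wound-responsive ERF factor, had 20.2, 16.2 and 18.3 CPM in WT-WA, against 8.85, 9.28 and 6.25 CPM in WT-A (1.17 ± 0.18, adjusted p = 0.023). It was the 1 called gene among 13 tested wound and regeneration AP2/ERF factors, of which 3 passed the adjusted p alone, and their median was 0.24. RNS1, a ribonuclease of phosphate starvation and wounding, had 3.42, 5.81 and 3.59 CPM in WT-WA and 1.73, 1.51 and 1.02 CPM in WT-A, which is 3.00-fold higher (1.59 ± 0.31).

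Cyclins and cyclin-dependent kinases shifted slightly upwards. Of 21 cell division genes 19 had positive values, with a median of 0.39. No member met the full rule in edgeR or DESeq2, while 6 passed the adjusted p alone and 15 were higher and 1 lower at an unadjusted p under 0.05. CYCD3;1, a cyclin of the entry into the cell cycle, had 90.5, 81.1 and 89.6 CPM in WT-WA, against 67.3, 69.3 and 68.0 CPM in WT-A (0.36 ± 0.08, adjusted p = 0.048). The groups were apart, though by less than the fold rule asks for. CDKB2;1 was at 0.42 with an adjusted p of 0.066. With the replicate block its adjusted p was 0.0038, and it was still not called.

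Defence and hormone lists changed little. All 24 tested genes of the salicylic acid and PR list had positive values, with a median of 0.41. None was called by edgeR or DESeq2, 2 passed the adjusted p alone and 8 were higher at an unadjusted p under 0.05. PR1, a marker of the salicylic acid response, had 491, 452 and 714 CPM in WT-WA and 355, 322 and 212 CPM in WT-A, a change of 0.90 ± 0.23 that did not pass (adjusted p = 0.069). With the replicate block PR1 passed the adjusted p alone (0.021) and was still not called. BG2 (PR2), a glucanase, was at 0.50 and PR5 at 0.77, and both passed the adjusted p alone. The Aux/IAA genes, early targets of auxin, had 24 of 26 negative values and a median of -0.29. IAA1, IAA2, IAA5 and IAA16 passed the adjusted p alone at -0.59, -0.42, -0.55 and -0.51, 0 were called by edgeR or DESeq2, and 11 were lower at an unadjusted p under 0.05. WRKY factors had a median of 0.41 over 24 tested, with 0 called by either tool and 8 at an unadjusted p under 0.05.

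Jasmonate genes, the classic early wound response, were not among the called genes after 55 h. Over 13 genes of jasmonate synthesis the median was 0.04, and over 18 response genes it was -0.11. Neither edgeR nor DESeq2 called a member, and 2 and 6 of them were below an unadjusted p of 0.05. The storage protein gene VSP1 had 51.4, 49.2 and 94.4 CPM in WT-WA, against 58.5, 68.9 and 86.4 CPM in WT-A, and the ranges overlapped. Without 2,4-D, wounding raised VSP1 at the same 55 h, to 842, 559 and 647 CPM in WT-W. WT-M had 143, 200 and 189 CPM (1.97, adjusted p = 0.0019). Its interaction term of -2.09 did not pass (adjusted p = 0.069). In WT-W against WT-M, 2 response genes and 0 synthesis genes were called higher, against 4.68% of all genes tested there. In all, 418 distinct genes of 31 lists were tested, of which 3 rose and 14 fell, against 0.431% and 1.46% of all genes tested. Of the lists, 20 had no called member. Among these were lists of hypoxia (median 0.49), sulphate starvation (0.37), flavonoids (-0.20), nitrogen assimilation (-0.70), expansins (-0.02) and secondary wall (-0.02). At an unadjusted p under 0.05 they held 1, 2, 5, 4, 4 and 1 genes. DESeq2 called 1 gene each for sulphate starvation and flavonoids, and the replicate block 1 and 2.

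**Figure D3:**
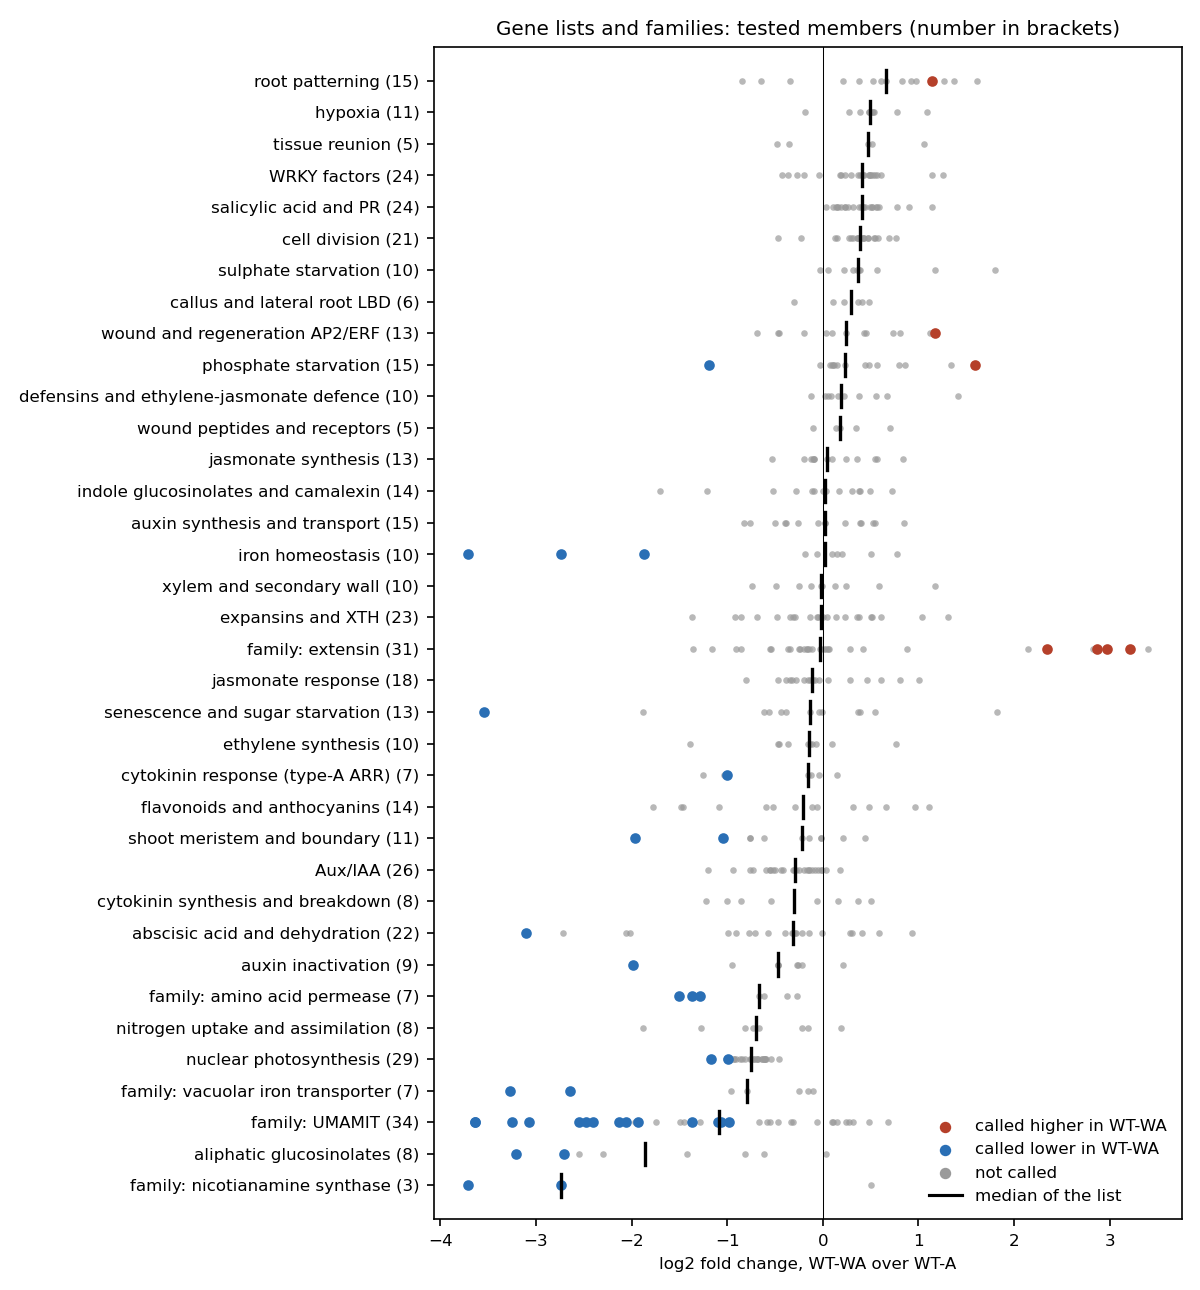
Log2 fold change of WT-WA over WT-A for each tested member of 31 lists and 5 gene families, sorted by the list's median (black bar). Members called lower (blue) gather in the UMAMIT, permease, iron and glucosinolate groups, members called higher (red) in the extensin family, and all 29 photosynthesis genes lie left of 0.

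The same cut without 2,4-D shared part of these changes. In WT-W against WT-M, 903 genes were higher (4.68%) and 561 lower (2.91%, 7.59% for both) by the same rule, from 6 other libraries. Of the 84 genes that rose with wounding on 2,4-D, 17 also rose without it, which is 20.2% of these and 1.88% of the 903. Of the 284 that fell, 41 also fell without 2,4-D (14.4% of these and 7.31% of the 561) and 24 rose there (8.45% and 2.66% of the 903). The difference between both wounding steps was tested as an interaction in the model of all groups, where 1695 of 21115 genes (8.03%) had a positive and 2323 (11%) a negative term (19% for both). Of the 284 genes that fell, 184 had a negative term and 1 a positive one. Of the 84 that rose, 10 had a positive and 9 a negative term. Both the calls and the term use the WT-WA and WT-A libraries, so the sign of the term is no separate evidence. Over the 270 lower genes tested in both steps, the median change was -0.02 for wounding without 2,4-D, and over 43 higher genes it was 1.24, with 39 positive and 4 negative values.

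**Figure D4:**
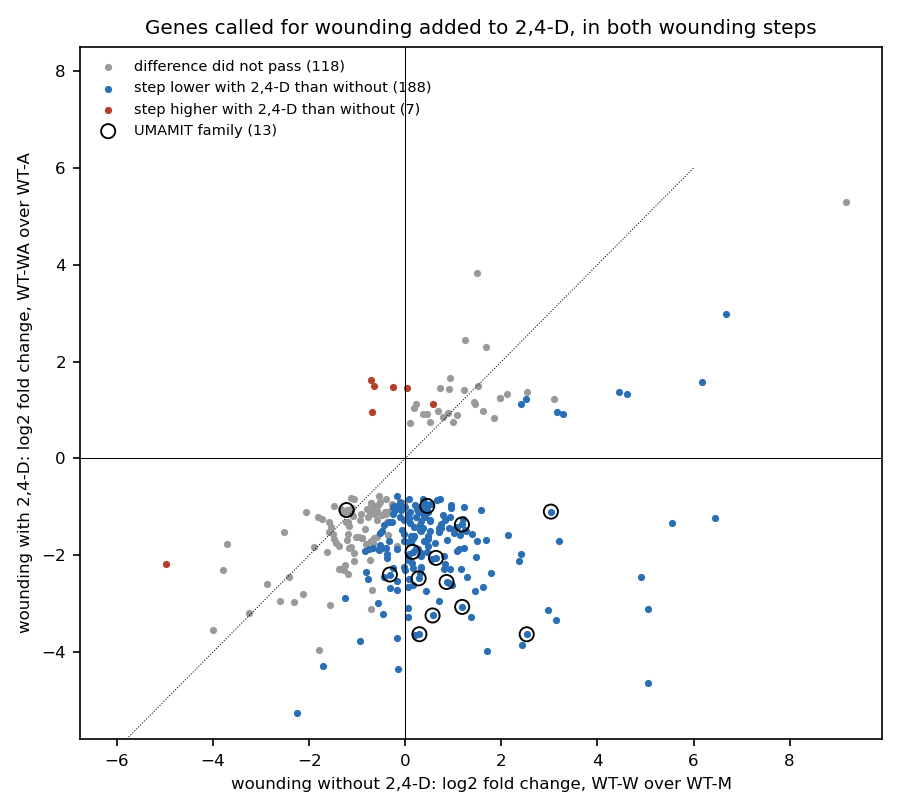
Log2 fold change of wounding with 2,4-D (WT-WA over WT-A, vertical) against wounding without it (WT-W over WT-M, horizontal) for the 313 called genes tested in both, coloured by the interaction test, with the dotted line at equal change. The 188 blue points lie below the line, and the 13 called UMAMIT genes (circles) are low on the vertical axis.

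AT1G13609, the gene with 4 W-box matches printed above, had the largest negative interaction. Without 2,4-D wounding took it to 28.2, 47.8 and 57.5 CPM in WT-W, against 2.39, 0.387 and 1.52 CPM in WT-M, whereas on 2,4-D it was almost absent in WT-WA. The interaction term was -9.67 ± 1.28 (adjusted p = 6.2e-06). RAB18, LTP4 and AT3G53980 followed at -8.15, -7.69 and -7.34. LTP4, a lipid transfer protein, had 146, 180 and 149 CPM in WT-WA and 435, 333 and 358 CPM in WT-A, but 124, 155 and 192 CPM in WT-W and 1.62, 2.71 and 0.966 CPM in WT-M. AT3G53980, annotated as a lipid-transfer type protein, had 464, 614 and 467 CPM in WT-W, against 17.9, 18.4 and 15.9 CPM in WT-M. Thus these genes rose with wounding alone and fell when wounding was added to 2,4-D. BGLU24, a beta-glucosidase gene below 5 CPM, had a term of -6.89, which depends on the fit since all WT-M libraries were at 0.

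SIAR1 and AT1G47395, which fell on 2,4-D, rose without it. SIAR1 had 149, 157 and 169 CPM in WT-W, against 85.6, 82.5 and 97.9 CPM in WT-M (0.86, adjusted p = 0.0024), and its interaction term was -3.40 ± 0.37 (adjusted p = 3.0e-07). UMAMIT20 did not pass without 2,4-D, at 0.30, and its term was -3.92. The UMAMIT median without 2,4-D was 0.30, with 4 members higher and 1 lower, and 18 members had a negative interaction and 0 a positive one. For NAS4 the values were 70.1, 74.5 and 128 CPM in WT-W, against 24.9, 21.7 and 54.4 CPM in WT-M. The groups were apart, but the fold rule was not met (1.46, adjusted p = 0.032), and the interaction term was -4.18 ± 0.49. AT1G47395 rose by 3.13 without 2,4-D, and its term was -6.45. OPT3 and KNAT1 were at 0.26 and 0.25 without 2,4-D, did not pass there, and had terms of -2.12 and -1.28. By contrast AT2G32870 fell in both steps (-1.71 without 2,4-D), and MAM1 fell by 3.25 without 2,4-D with a term of 0.05 that did not pass.

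Of the genes called for wounding on 2,4-D, 10 that rose and 1 that fell had a positive interaction. AT1G11670, a MATE efflux transporter, had 18.9, 19.1 and 14.1 CPM in WT-WA and 6.91, 6.58 and 5.30 CPM in WT-A, and its change without 2,4-D was -0.25, which did not pass. Its term was 1.74 ± 0.20. IRE, a kinase of root hair elongation, had a term of 2.03, and AT1G26680, a B3 factor, one of 2.16. IRE was below the filter of WT-W against WT-M, with at most 0.349 CPM in WT-W and 0.414 CPM in WT-M. AT5G52940, AT5G43030 and AT4G27850 had terms of 2.35, 2.69 and 2.82 at levels below 6 CPM. For AT4G27850 an antisense gene overlaps 41.5% of exon bases. ERF114 rose in both steps (1.44 without 2,4-D), and its term of -0.26 did not pass. AT2G15780 rose in both steps as well, with 5.38, 2.65 and 6.27 CPM in WT-W, while all 3 WT-M libraries were at 0. AT3G28550, AT1G23720, EXT10 and LRX1 had terms of 2.07, 0.74, 3.18 and 5.01 that did not pass, and their levels without 2,4-D were below the filter of WT-W against WT-M.

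The WT-A libraries also define the response to 2,4-D alone, so levels in WT-M are given side by side only. RAB18 had 0.772, 1.11 and 0.483 CPM in WT-M, and AT3G28550 had 0.232, 0.332 and 0.0690 CPM, both far below WT-A. MAM1 had 1475, 1766 and 1644 CPM in WT-M, far above WT-A. In WT-A against WT-M, 2624 genes were higher (13.4%) and 2797 lower (14.3%), together 27.6%.

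**Figure D5:**
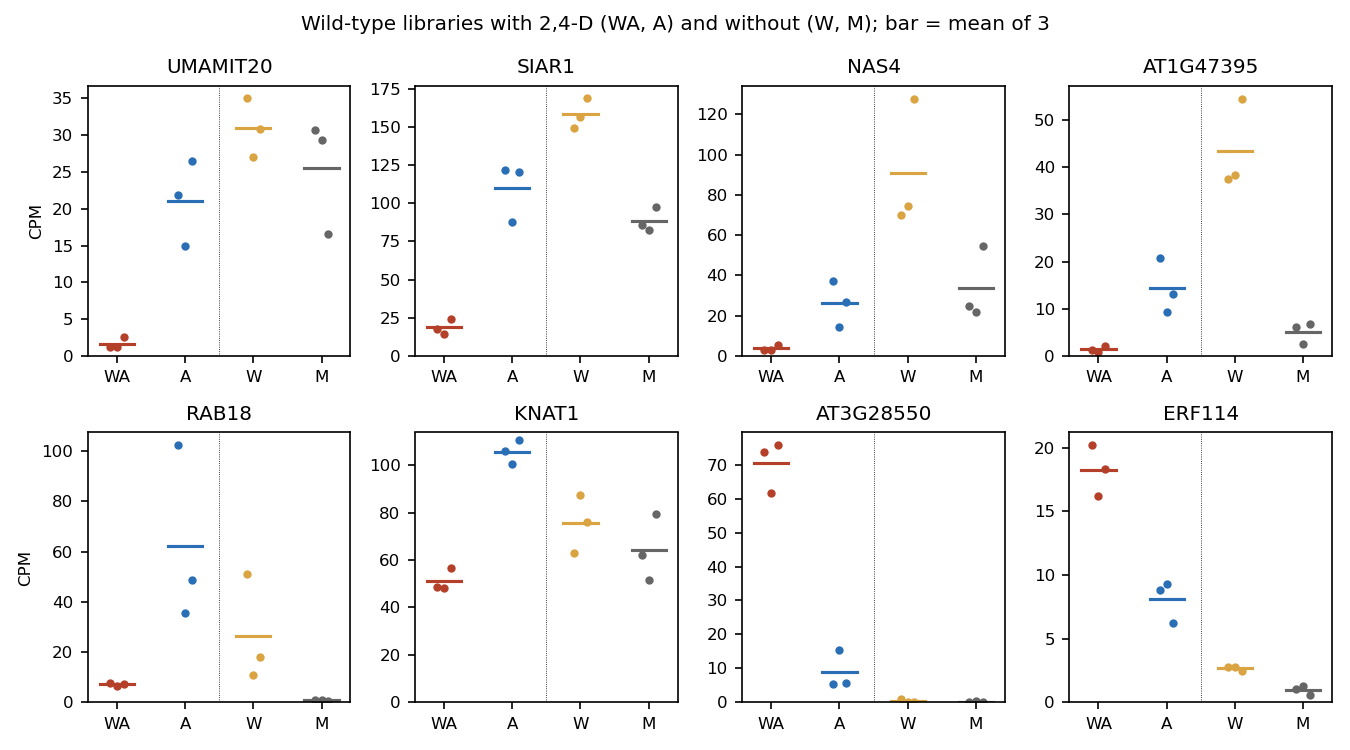
CPM of the wild-type libraries with 2,4-D (WA, A) and without it (W, M) for 8 genes, points for libraries and bars for means of 3. UMAMIT20, SIAR1, NAS4 and AT1G47395 are lowest in WA, at 14.3 to 24.0 CPM for SIAR1, and AT3G28550 and ERF114 are highest there.

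In clf swn apexes the same step went mostly upwards. In cs-WA against cs-A, 804 genes were higher (4.16%) and 32 lower (0.166%), together 4.33%. Of the 84 genes that rose in wild type 47 also rose in clf swn, which is 56.0% of these and 5.85% of the 804. Of the 284 that fell, 22 fell in clf swn, 7.75% of these and 68.8% of the 32. Of the 246 lower genes tested in clf swn, 209 had negative and 37 positive values there, with a median of -0.40. Of the 69 higher genes tested there, 66 were positive and 3 negative, with a median of 2.62. The median of all genes tested in clf swn was -0.01. The difference between genotypes was tested in the model of all groups, where 91 of 21115 genes (0.431%) had a higher and 760 (3.6%) a lower step in wild type (4.03% for both). Among the 284 lower genes 88 had a lower step in wild type than in clf swn and 0 a higher one. Among the 84 higher genes 21 had a lower and 4 a higher step in wild type. The calls and this term share the WT-WA and WT-A libraries, so its sign is no separate evidence. The count of 91 was 41 to 56 without any of WT-WA replicates 1 and 2, WT-A replicates 1 and 3, the 3 cs-WA libraries and cs-A replicates 2 and 3, and 87 to 106 without the others.

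Extensin-type genes differed strongly between genotypes. AT3G28550 had 110, 151 and 123 CPM in cs-WA, against 0.945, 0.475 and 0.797 CPM in cs-A, and the wild-type step was lower by 4.41 ± 0.67 on the log2 scale (adjusted p = 6.5e-05). EXT10 had 56.1, 58.6 and 51.9 CPM in cs-WA and at most 0.337 CPM in cs-A, and its difference was -5.69. AT1G23720, AT5G64100 and LRX1 differed by -5.15, -4.03 and -4.01, and TMO7 by -3.11. All of them rose in both genotypes, and the cs-WA libraries were above the WT-WA libraries for each of them but TMO7.

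Several genes that fell in wild type had a smaller decrease or none in clf swn. OPT3 had 131, 159 and 155 CPM in cs-WA, against 153, 141 and 143 CPM in cs-A, and the groups overlapped. The difference between genotypes was -1.84 ± 0.34 (adjusted p = 0.00096). AT1G47395 differed by -2.97, NAS4 by -1.92 and MYB28 by -2.78, and all 3 passed. MYB28 was already low in cs-A, at a mean of 3.23 CPM, against 3.55 CPM in cs-WA. Its means were 3.42 CPM in WT-WA and 22.7 CPM in WT-A. The part of this low cs-A level in the MYB28 difference was not tested. AT1G47395 and NAS4 had higher cs-A means, at 40.8 and 20.7 CPM. SNRK2.7, AT3G59845, MIF3 and PER64 differed by -3.47, -3.24, -3.42 and -3.74. These genes were below the filter of cs-WA against cs-A, and their means did not fall there. PER64 had a mean of 1.80 CPM in cs-WA and 0.409 CPM in cs-A, and MIF3 had 0.548 and 0.130 CPM. For SNRK2.7 the means were 0.633 and 0.535 CPM, and for AT3G59845 0.686 and 0.457 CPM. KNAT1 and LOB differed by -0.71 and -1.36. SIAR1 and UMAMIT20 fell in clf swn as well, by 1.72 and 2.79 on the log2 scale, and their differences of -0.80 and -0.81 did not pass. UMAMIT30 and UMAMIT32 had differences of -2.48 and -1.52 that passed. SAP, a regulator of floral and organ growth, and AT1G23750, an OB-fold protein, had higher steps in wild type, by 1.44 and 1.08. SAP had 8.69, 9.59 and 8.10 CPM in WT-WA and 3.31, 2.90 and 3.4 CPM in WT-A, whereas its change of 0.05 in clf swn did not pass (adjusted p = 0.88).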

How the data were processed

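RNA-seq libraries were made by the authors with TruSeq RNA v2. Per the labels and methods, reads were checked with FastQC, trimmed with Trimmomatic 0.32, aligned uniquely with TopHat2 2.0.10 to TAIR10 and counted on genes with HTSeq. The authors deposited raw counts of 28775 genes in 35 libraries, without normalization. The strand setting of the counting was not given in the sources used here, so reads of antisense genes cannot be told apart. There were 0 other per-sample columns.

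Counts were tested with edgeR 4.0.16 (TMM, filterByExpr, quasi-likelihood F test, Benjamini-Hochberg) on R 4.3.3, in the 6 libraries of each pair of groups. Zeros were set to 0.01 CPM in the fold rule (log2 ratio of at least 0.6). Differences between steps came from a model of 10 groups, called at an adjusted p below 0.05. The replicate numbers were read as pairs, because the methods state that replicates were made at different times and sequenced by lane. The main fits did not use these pairs. Calls, SE and adjusted p are from fits without the replicate block unless it is named. Deviations of same-numbered WT-WA and WT-A libraries correlated at 0.427, 0.485 and 0.577, and all others negatively. The p-values measure the spread between these libraries.

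Named were the 10 called genes of largest change in each direction (mean of at least 1 CPM), up to 4 called members per list and direction, up to 2 abundant members where none was called, and 5 called genes per direction with the largest interaction or genotype term. UMAMIT, AAP, extensin, nicotianamine synthase and vacuolar iron transporter genes, FER3, RHD6, AT1G47400 and the members named within lists beside these were added after their values were seen. The lists, members and comparisons were chosen with earlier results of these data known. RefSeq TAIR10.1 gave names, promoters and exon overlaps, and 28009 of the 28775 IDs matched. Alternatives were RLE size factors, DESeq2 1.42.0, other filters, the replicate block, larger fits, other fold rules and each library left out. The procedure was tested on simulated data. A gene that met the naming rule is not reported here.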

Additional observations from a re-analysis of the deposited data

Results flagged for a closer look

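Given here are differences between wounding steps that passed the test in the model of 10 groups (edgeR's quasi-likelihood test, adjusted p below 0.05), as log2 terms. A negative term means that the step was lower in the group given first.

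The wounding step with 2,4-D differed from that without 2,4-D in wild type for UMAMIT19 (-6.15), UMAMIT17 (-4.24), UMAMIT14 (-4.12), UMAMIT20 (-3.92), UMAMIT30 (-3.80), SIAR1 (-3.40), UMAMIT29 (-2.75), UMAMIT12 (-2.68), UMAMIT28 (-2.54), UMAMIT32 (-2.07), UMAMIT47 (-2.07) and UMAMIT45 (-1.43). Permease genes differed less, with AAP4 at -1.79, AAP7 at -1.68 and AAP2 at -1.02. The uncharacterized gene AT1G47395 had a term of -6.45. Among metal genes the terms were -4.18 for NAS4, -3.52 for NAS1, -3.32 for AT3G25190, -2.69 for AT1G76800 and -2.12 for OPT3. The genes of largest change had terms of -9.67 (AT1G13609), -5.66 (AT2G38600), -4.19 (AT2G37900), -3.85 (AT1G49470), -3.70 (AT4G12490), -2.99 (AT2G32880), -2.82 (AT4G29905) and -2.58 (AT2G32870). Further negative terms were -8.15 (RAB18), -7.69 (LTP4), -7.34 (AT3G53980), -6.89 (BGLU24), -5.89 (AT3G59845), -4.64 (SNRK2.7), -3.41 (TMO7), -3.20 (PER64), -2.53 (MYB28), -2.04 (GH3.9), -2.01 (MIF3), -1.58 (PHO1), -1.58 (LOB), -1.44 (ARR9), -1.28 (KNAT1) and -0.84 (LHCB4.3). For BGLU24 and AT3G59845 all WT-M libraries were at 0, and for TMO7 they held a single read, so that the size of the term depends on the fit. IRE, with a positive term, was below the filter of WT-W against WT-M. Positive terms were 2.82 (AT4G27850), 2.69 (AT5G43030), 2.35 (AT5G52940), 2.16 (AT1G26680), 2.03 (IRE), 1.74 (AT1G11670), 1.43 (SAP) and 0.54 (AT1G23750).

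The wounding step on 2,4-D in wild type differed from that in clf swn for EXT10 (-5.69), AT1G23720 (-5.15), AT3G28550 (-4.41), AT5G64100 (-4.03), LRX1 (-4.01) and TMO7 (-3.11), which rose in both genotypes. Genes that fell in wild type had terms of -3.74 (PER64), -3.47 (SNRK2.7), -3.42 (MIF3), -3.24 (AT3G59845), -2.97 (AT1G47395), -2.78 (MYB28), -2.48 (UMAMIT30), -2.35 (AT2G32870), -2.21 (LTP4), -1.92 (NAS4), -1.84 (OPT3), -1.61 (GH3.9), -1.52 (UMAMIT32), -1.36 (LOB), -1.05 (AAP4) and -0.71 (KNAT1). Positive differences were 1.75 (AT1G26680), 1.44 (SAP), 1.08 (AT1G23750) and 1.07 (AT1G11670).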

How the results depend on the processing

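There were 84 genes higher in WT-WA than in WT-A and 284 genes lower in WT-WA than in WT-A. With the adjusted p alone there were 366 and 624. With the adjusted p and a fitted log2 fold change of at least 0.6 there were 192 and 484. The adjusted p alone with the replicate block (chosen after seeing the data) gave 1906 and 2560. Of 39 uncalled genes picked by the naming rule, 6 passed the adjusted p alone without the block and 17 with it. The replicate block under the full rule gave 121 and 351, which held all 84 and all 284 genes and moved neither the interaction nor the genotype counts by over 1.5 times. DESeq2 gave 103 and 331, RLE size factors 80 and 280, no filter 90 and 302, and at least 10 counts in each library 66 and 224. Leaving out 1 library gave 0 to 112 genes higher and 3 to 408 lower, and in the model of 10 groups (chosen after seeing the data) 70 to 165 and 287 to 643. The interaction kept 1233 to 2082 positive and 1777 to 2381 negative genes with a library left out, against 1695 and 2323. Steps higher in wild type than in clf swn numbered 91, but 48 without a filter, 17 with at least 10 counts in each library, 55 with only the 4 groups in the fit, and 41 to 106 with a library left out. Steps lower in wild type numbered 760, against 225 with at least 10 counts in each library and 533 to 842 with a library left out. The stricter filter tests fewer genes. Otherwise the cause was not tested.

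Of 70 called genes named, 1 stayed called without WT-WA replicate 1, 15 without WT-WA replicate 2, 51 without WT-WA replicate 3, 26 without WT-A replicate 1, 60 without WT-A replicate 2 and 9 without WT-A replicate 3, and none changed sign. Among the other genes reported, a sign changed only where a gene was not called, with a library left out, and their log2 fold changes then lay at -0.373 to 0.387 for ACO1, -0.0201 to 0.926 for ADH1, -0.179 to 0.0134 for AOC4, -0.0695 to 0.586 for APR3, -0.486 to 0.384 for CKX7, -0.200 to 0.108 for EXPA1, -0.0941 to 0.241 for EXPA4, -0.205 to 0.0766 for JAZ12, -0.354 to 0.0439 for NIA2, -0.0934 to 0.318 for PR4 and -0.513 to 0.0452 for VSP1.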

Other observations

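Other called genes, chosen here after their values were seen, concerned sugar, hormone and flowering pathways. SWEET12, a sucrose exporter of phloem parenchyma, had a log2 fold change of -3.11, LOG1, which activates cytokinins, of -2.89, and CCD7, of strigolactone synthesis, of -1.97. GA3OX1, which makes bioactive gibberellin, was at -1.82. FT, the flowering signal that moves in the phloem, was at -4.46 at low counts. Genes of metal transport beside those in the report were also lower, with ZIP1 at -1.52, FRO7 at -1.52 and HMA2 at -1.43. The subtilase genes AT4G21650, AT4G21640 and AT4G21630 were at -2.16, -1.99 and -1.98. Among the genes that rose, OSM34, an osmotin-type defence protein, was at 1.36, KOR2, a cellulase-type enzyme of growing root hairs, at 1.58 and RHS16, a root hair specific kinase, at 1.61. These values were not weighed further.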
